A study of Rattus norvegicus with 9 samples.

Results

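Dcx, Map2, Gap43, Elavl4 and Coro1a are 5 genes best known from neurons, or in the case of Coro1a from white blood cells, that gave array signals in cultured ureteric buds. They were chosen by symbol, as every probe set that the platform's gene table assigns to 1 of them. That gave 8 probe sets out of 15866 non-control probe sets on the array, and 5 genes out of 10411 with a symbol of their own. The choice was made with the results of these arrays known, so the members' differences between media are given as a description, with no p-value.

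Ureteric buds, the epithelial outgrowths that branch to form the collecting ducts of the kidney, were taken from Sprague-Dawley rat embryos at embryonic day 13 and cultured for 4 days in 50% Matrigel and 50% collagen. All 9 samples, each the RNA of 3 buds, received FGF1 at 250 ng/ml and GDNF at 125 ng/ml. The BSN group (3 samples) also received medium conditioned by a line of metanephric mesenchyme cells, the HRG group (3 samples) human recombinant heregulin alpha at 500 ng/ml, and the PTN group (3 samples) about 3 µg/ml of pleiotrophin purified from that conditioned medium. The labels disagree on whether PTN buds branched, so the groups are named by medium, and no group had FGF1 and GDNF alone. Whole buds were pooled, so tip and trunk were not separated, and in bulk RNA fewer cells of a type and less RNA per cell cannot be told apart.

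Neurons share a set of proteins that few other cells use at high level. Dcx and Map2 bind and stabilise microtubules in migrating neurons and in dendrites, Gap43 is a membrane-attached protein of the growing axon tip, and Elavl4, also called HuD, binds and stabilises messenger RNAs. Coro1a regulates actin in lymphocytes and other white blood cells and is also present in neurons. In the ureteric bud the tip carries Ret, the receptor for GDNF, while the trunk matures toward collecting duct.

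Signals are GCOS intensities, and the 40th percentile of an array's non-control probe sets served as a floor. It lay between 580 and 788 signal units on the 9 arrays. The floor is a place in the order of signals and not a detection call, and it does not say whether a transcript was present. A probe set was kept for the fit when it lay above the floor on at least 3 of 9 arrays, which left 10106 probe sets (63.7%). Of the 8 member probe sets 5 were kept, 1 for each gene. The trimmed mean was 2500.48 to 2500.58 on all arrays, and PTN replicate 1 was the array least like its group, with a mean r of 0.946 against 0.962 to 0.976 for the others. The ratio of 3' to 5' signal of the actin control ran from 28.0 to 37.8 for BSN arrays, 18.6 to 29.6 for HRG arrays and 15.3 to 18.1 for PTN arrays. Its part in the results was not tested.

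**Figure D1:**
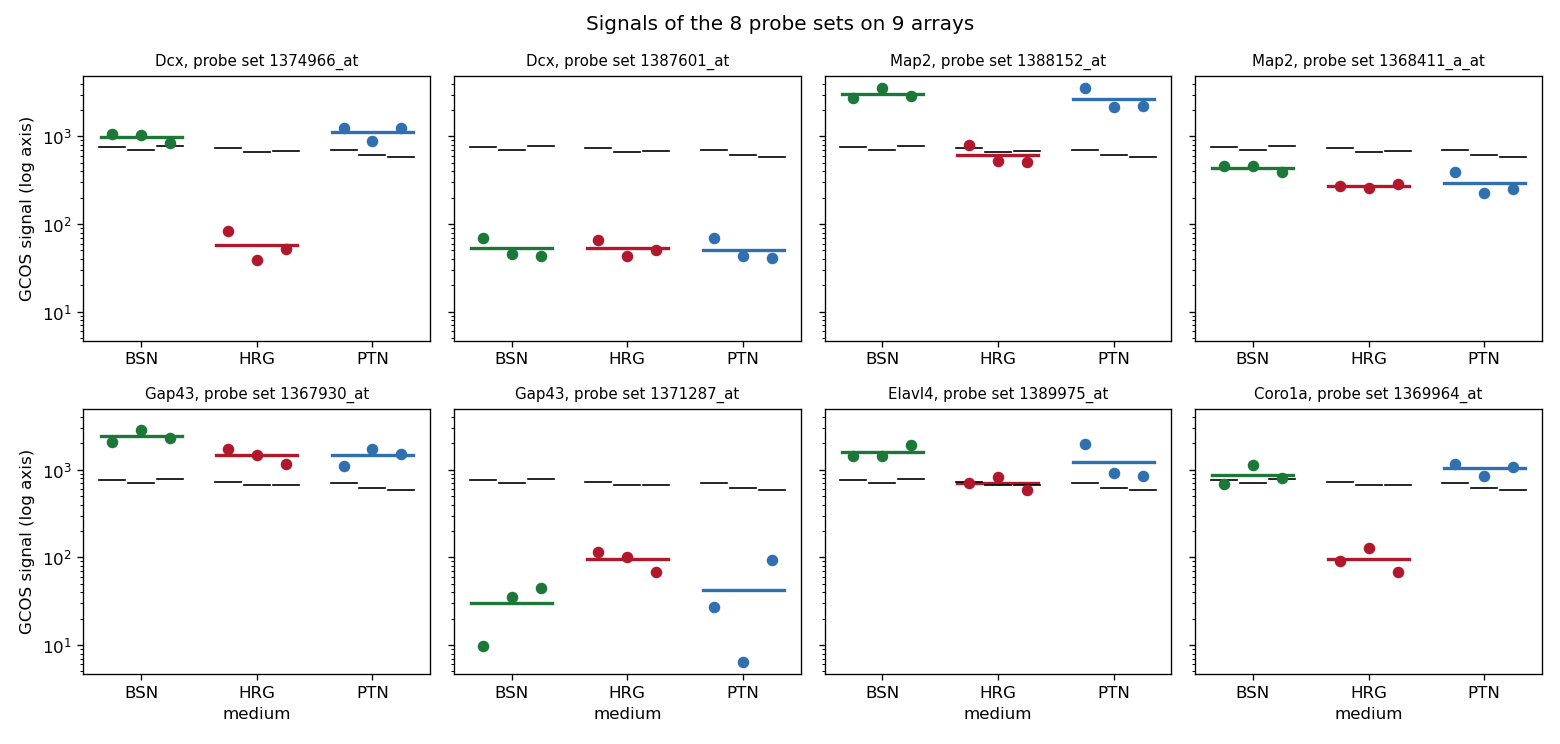
GCOS signal on a log axis of the 8 probe sets of Dcx, Map2, Gap43, Elavl4 and Coro1a, with 1 point per array, coloured bars at the mean of the 3 arrays of a medium and short black lines at each array's 40th percentile. The brighter probe sets of Dcx and Coro1a lay below the black lines on all HRG arrays, the brighter probe set of Gap43 lay above them on all 9 arrays, and the 3 dimmer probe sets lay below them throughout.

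Dcx, the microtubule protein of migrating neurons, lay under the floor on all HRG arrays and above it on all others by 1 of its probe sets. That brighter one, 1374966_at, gave signals of 1078, 1038 and 848 in BSN replicates 1 to 3. The HRG arrays gave 82.8, 39.0 and 51.4. The PTN arrays gave 1252, 881 and 1237. Every HRG array lay far below every BSN and PTN array, while BSN and PTN overlapped. Averaged over 3 arrays (± SD), BSN was at 988 ± 123, HRG at 57.7 ± 22.6 and PTN at 1123 ± 210. Because all HRG signals lay under the floor, the difference is given as a bound against the floor of the HRG arrays: Dcx was at least 1.41-fold higher in BSN and at least 1.59-fold higher in PTN. On the log2 scale PTN exceeded BSN by 0.17 (SE 0.32), less than the spread between replicates. The order of levels was PTN, BSN, HRG, and the first pair in that order did not differ beyond its spread.

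In place on the array, Dcx stood at the 41.9th to 49.2nd percentile in BSN, the 4.9th to 10.6th in HRG and the 48.4th to 56.6th in PTN. It was thus above the floor in BSN and PTN by a small margin and far under it in HRG. The pattern of lying above the floor on all BSN and PTN arrays and under it on all HRG arrays was met by 57 of all 15866 probe sets (0.359%). Dcx was the only member among them. The other Dcx probe set, 1387601_at, read 40.7 to 69.0 on all 9 arrays, at the 4.48th to 9.07th percentile. It showed no separation of media: the HRG mean was 53.3 ± 11.3, the BSN mean 52.9 ± 14.0 and the PTN mean 51.1 ± 15.6 (SD, n = 3). The change between media was therefore seen by 1 of the 2 Dcx probe sets.

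Map2, which bundles microtubules in dendrites, was brighter. Its probe set 1388152_at gave 2740, 3545 and 2866 in BSN replicates 1 to 3. HRG gave 788, 528 and 517. PTN gave 3567, 2166 and 2221. Again every HRG array lay below every array of the other media, and BSN and PTN overlapped. The means were 3050 ± 433, 611 ± 154 and 2651 ± 793 (SD, n = 3), and the PTN mean was 2194 without PTN replicate 1. Map2 was 4.95-fold lower in HRG than in BSN (log2 change -2.31, SE 0.22) and 4.22-fold lower than in PTN (-2.08, SE 0.22). As 2 of 3 HRG arrays lay under the floor, the matching bounds are at least 4.21-fold and at least 3.58-fold. PTN against BSN was -0.23 (SE 0.22), within the spread. The order was BSN, PTN, HRG, and BSN and PTN did not differ beyond their spread.

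Map2 stood at the 71.4th to 76.6th percentile in BSN, the 33.8th to 41.8th in HRG and the 68.4th to 77.7th in PTN, so in the first and last of these media it was well clear of the floor. Its dimmer probe set, 1368411_a_at, gave 464, 459 and 391 in BSN, 276, 259 and 289 in HRG and 394, 228 and 254 in PTN. Those signals lay between the 20.9th and 30.2nd percentile and never above the floor. The HRG arrays were again all below the BSN arrays, with means of 275 ± 15.1 and 438 ± 41.0 (SD, n = 3), while PTN overlapped HRG, at 292 ± 89.2. No fold is given for a probe set under the floor in both groups.

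Gap43, the protein of the axonal growth cone, was the member above the floor on all 9 arrays. Probe set 1367930_at gave 2058, 2872 and 2321 in BSN replicates 1 to 3. HRG gave 1725, 1479 and 1174. PTN gave 1096, 1742 and 1530. Here BSN stood apart from both other media, which overlapped each other. The means were 2417 ± 415, 1459 ± 276 and 1456 ± 329 (SD, n = 3). Gap43 was 1.65-fold lower in HRG than in BSN (log2 change -0.73, SE 0.20) and 1.67-fold lower in PTN than in BSN (-0.74, SE 0.20), and HRG against PTN was 0.01 (SE 0.20). The order was BSN first, with HRG and PTN indistinguishable. The array with the highest signal, BSN replicate 2, carried part of this. Without it the log2 change was -0.59 in HRG against BSN and -0.61 in PTN against BSN, and neither passed the threshold of the fit. Leaving out BSN replicate 3 (-0.75), HRG replicate 2 (-0.74) or the third HRG array (-0.58) also ended the HRG call, and leaving out BSN replicate 3 (-0.76) ended the PTN call. Quantile normalization (-0.66 and -0.60) and median centring (-0.62 and -0.52) ended both calls, and with no filter the HRG call was lost.

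Gap43 lay between the 51.0th and the 71.9th percentile. A dimmer probe set of the gene, 1371287_at, gave 9.7, 35.4 and 44.8 in BSN, 116, 101 and 68.8 in HRG and 27.3, 6.4 and 92.4 in PTN. These values, at the 0.30th to 13.6th percentile, were among the lowest of the array. Their order was not that of the brighter probe set, since all HRG arrays lay above all BSN arrays.

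Elavl4, the neuronal RNA-binding protein, had a single probe set, 1389975_at. It gave 1420, 1430 and 1903 in BSN replicates 1 to 3. HRG gave 709, 830 and 585. PTN gave 1942, 914 and 838. HRG lay below all arrays of the other media, and the highest and lowest signals of the other media both came from PTN. The means were 1584 ± 276, 708 ± 123 and 1231 ± 616 (SD, n = 3). Elavl4 was 2.21-fold lower in HRG than in BSN (log2 change -1.14, SE 0.28), or at least 2.09-fold against the floor, which 1 of 3 HRG arrays exceeded. It no longer passed when BSN replicate 3 (-1.01) or HRG replicate 3 (-1.02) was left out.

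Against PTN, Elavl4 was 1.62-fold lower in HRG (log2 change -0.69, SE 0.28), or 1.53-fold against the floor, and this did not pass. PTN replicate 1 decided the PTN level. Without it the PTN mean was 876, HRG against PTN was -0.31 and PTN against BSN went from -0.45 (SE 0.28) to -0.83 and passed. The HRG against PTN difference passed after quantile normalization (-0.82), after median centring (-0.80) and without PTN replicate 3 (-0.91). The order of levels was BSN, PTN, HRG, and PTN did not differ from BSN beyond its spread when all arrays were used. Elavl4 stood at the 55.9th to 62.1st percentile in BSN, the 36.6th to 45.3rd in HRG and the 48.3rd to 64.5th in PTN.

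Coro1a, the actin regulator of white blood cells, also had 1 probe set, 1369964_at. It gave 694, 1143 and 801 in BSN replicates 1 to 3. HRG gave 90.4, 128 and 68.1. PTN gave 1173, 854 and 1080. The HRG arrays were all far below the rest, and BSN and PTN overlapped. The means were 879 ± 235, 95.6 ± 30.5 and 1036 ± 164 (SD, n = 3). All HRG arrays and BSN replicate 1 lay under the floor. Against the floor of the HRG arrays Coro1a was at least 1.24-fold higher in BSN and at least 1.48-fold higher in PTN, and PTN against BSN was 0.25 (SE 0.32) on the log2 scale. The order was PTN, BSN, HRG, and the first pair did not differ beyond its spread. The percentiles were 37.8 to 51.1 in BSN, 9.21 to 14.5 in HRG and 47.7 to 54.0 in PTN, so in BSN and PTN Coro1a lay around the floor and a little above it.

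**Figure D2:**
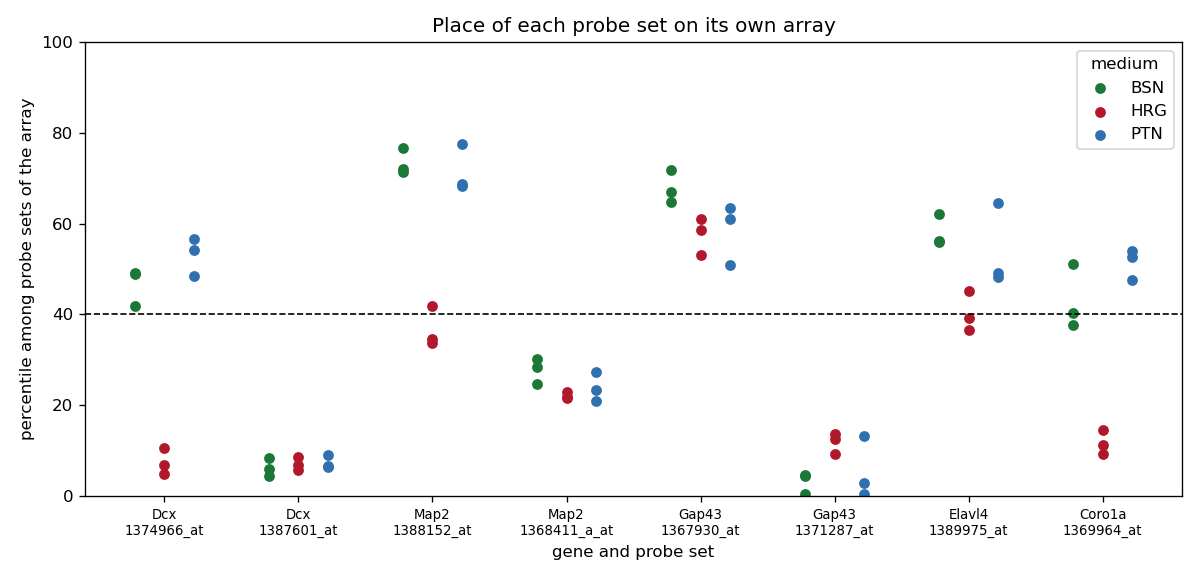
Percentile of each probe set of the 5 genes among the non-control probe sets of its own array, with 1 point per array coloured by medium and a dashed line at the 40th percentile. Map2 (1388152_at) reached the 77.7th percentile and Gap43 (1367930_at) the 71.9th, whereas Dcx (1374966_at) and Coro1a stayed at or below the 56.6th and 54.0th.

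In the fit over all kept probe sets (limma, adjusted p under 0.05), the 5 kept member probe sets were all called lower in HRG than in BSN, where 15.8% of all kept probe sets were called and 8.86% were lower. In HRG against PTN 3 were called lower, Dcx, Map2 and Coro1a, where 25.8% of all were called and 11.7% were lower. In PTN against BSN 1 was called lower, Gap43, where 22.5% were called and 13.4% were lower. These shares depend on the arrays used: with 1 array left out, the count called over all kept probe sets ran from 1023 to 2216 in HRG against BSN (1594 with all arrays; 1023 without HRG replicate 3, 1051 without BSN replicate 3 and 1056 without HRG replicate 2). It ran from 1345 (without BSN replicate 3) to 3197 in PTN against BSN, where it was 2276, and from 1826 to 3094 in HRG against PTN, where it was 2603. The members were chosen from these contrasts, so nothing is read from their counts. HRG arrays enter both of the first comparisons, and their values are therefore not independent. The members that passed the filter through BSN and PTN alone, Dcx and Coro1a, had to differ from HRG to be kept. On the log2 scale a change of -3 or lower was reached by 23 of 10106 kept probe sets (0.228%) when HRG was set against BSN and by 25 (0.247%) when it was set against PTN. Dcx (-3.80 and -3.98) and Coro1a (-3.01 and -3.26) were among them, but these fitted changes depend on the pseudocount because their HRG signals lay under the floor.

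How far the members stood from the floor can be set beside gene lists with other places on the array. Of the 8 member probe sets 62.5% were kept, close to 63.7% of all probe sets, and 1 of 8 lay above the floor on all 9 arrays (12.5%), against 51.1% of all. Their median percentile on BSN, HRG and PTN arrays stood at 45.4, 18.1 and 48.8. For the 12 probe sets of the ureteric tip list these medians were 79.7, 40.5 and 86.5, and 11 of them were kept (91.7%). Genes of other organs, such as albumin or the pituitary hormones, had 7 of 33 probe sets kept (21.2%), and their highest place was the 58.3rd percentile. That place was reached by Lhb, a pituitary hormone subunit, which lay at the 48.1st to 58.3rd percentile on all 9 arrays. Ins1, which encodes insulin, lay at the 44.2nd to 55.0th. Lhb and Ins1 were the 2 of 33 that lay above the floor on all 9 arrays, and most of the list lay far lower, with median percentiles of 19.7 in BSN, 21.1 in HRG and 20.1 in PTN. The percentiles of Dcx and Coro1a in BSN and PTN fell within the range that this list reached, and those of Map2 in these media lay above it. Those of Elavl4 in these media lay partly within the range and partly above it, as did those of Gap43 over the 9 arrays. A percentile orders signals of different probe sets and does not measure amounts of RNA. Of the 7 kept genes of other organs 0 were called in each comparison (limma, adjusted p under 0.05), with 1, 1 and 0 at an unadjusted p under 0.05 in HRG against BSN, HRG against PTN and PTN against BSN.

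Which genes had the most similar pattern was measured as the root mean square difference of log2 profiles over the 9 arrays, each centred on its own mean, among 8415 kept probe sets of 7457 genes. Each gene entered by its probe set nearest to the member, so a gene's probe set can differ between members and settings. The arrays share their media, so this describes a pattern over 3 groups and carries no p-value. Dcx was nearest to Ret (0.28), then to Cxcr4, a chemokine receptor of the tip (0.33), and Wnt5b, a secreted Wnt ligand (0.35). Ret (1370989_at) had mean signals of 13512 in BSN, 918 in HRG and 18756 in PTN. Coro1a was nearest to Crispld2, a secreted protein (0.26), Cxcr4 (0.29) and Pde9a, a phosphodiesterase (0.40), with Ret in place 4 by a second, dimmer probe set (0.41, against 0.53 for the brighter). Map2 was nearest to Mdk, the growth factor midkine (0.23), Chgb, a secretory granule protein (0.23), and the noncoding RNA Lnc215 (0.29), again with the dimmer Ret probe set in place 4 (0.31, against 0.96 for the brighter). Gfra1, the co-receptor of Ret, held place 13 for Map2 (0.39), place 38 for Dcx and place 37 for Coro1a.

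Gap43 and Elavl4 lay far from Ret by this measure. The profiles were not scaled, so the measure also ranks the size of a change. A gene with a much smaller change than Ret lies far from it whatever its direction. Gap43 was nearest to Ifngr2, an interferon receptor chain (0.14), Ap1g1, a subunit of a clathrin adaptor (0.15), and Frmd6 (0.16), and Ret held place 7395 of 7457 and Gfra1 place 6477. Elavl4 was nearest to Pttg1, the mitotic regulator securin (0.13), Pa2g4 (0.17) and Masp1, a protease of the complement pathway (0.18), and Ret held place 7105. Gfra1 held place 404 for Elavl4 (0.42). Among the members themselves Dcx and Coro1a were the closest pair (0.52), followed by Map2 and Coro1a (0.57), and Dcx and Gap43 were the farthest apart (1.74).

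In an alternative added after the data were seen, every signal below its array's 40th percentile was raised to that value. Ret then held place 6335 for Dcx, whose nearest gene became Nup188, and place 6784 for Coro1a, whose nearest became Xpo5. That step limits a member to the distance between its bright arrays and the floor, which is small for Dcx and Coro1a, so they had to move away from Ret. For Map2 the dimmer Ret probe set, whose HRG signals are levelled to the same floor, moved to place 1, Gfra1 moved to place 4 and Cxcr4 went from place 35 to place 41. Ret went from place 7105 to place 1349 for Elavl4 and from place 7395 to place 7189 for Gap43. With a pseudocount of 64 the nearest gene of Dcx was Nell1 and Ret held place 4. Without PTN replicate 1 Ret held place 1 for Dcx and place 7 for Map2 and for Coro1a.

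**Figure D3:**
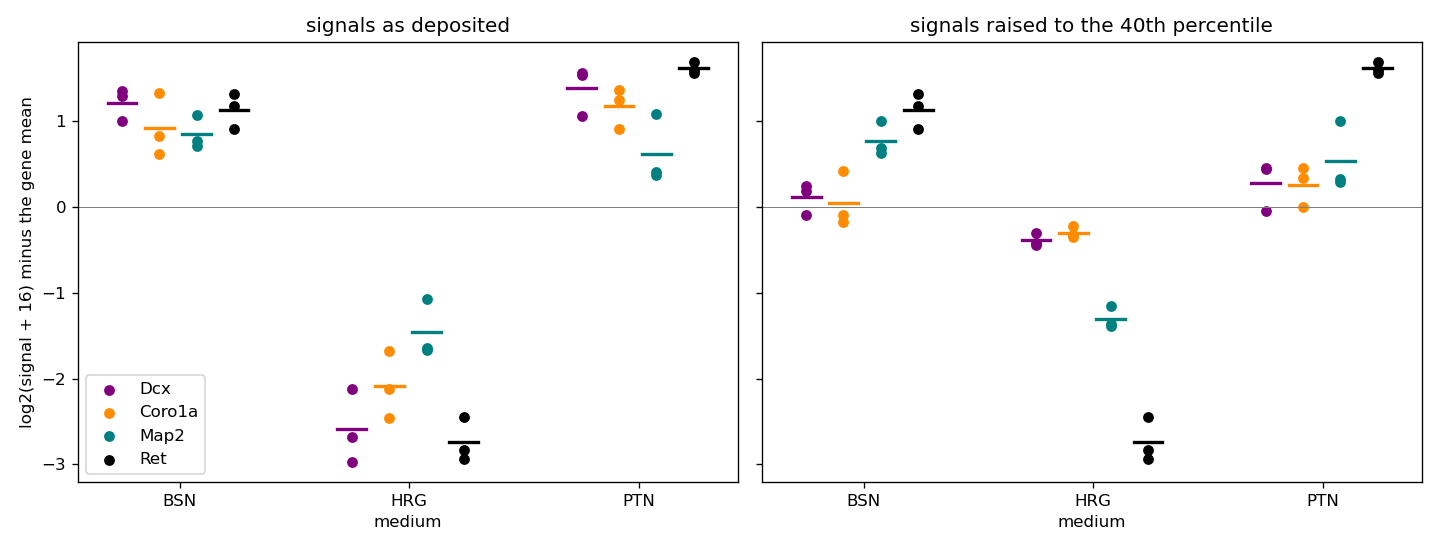
Log2(signal + 16) minus each gene's mean for Dcx, Coro1a, Map2 and Ret, with 1 point per array and bars at the mean of each medium, for signals as deposited (left) and with signals raised to the array's 40th percentile (right). On the left all 4 genes are low in HRG; on the right Dcx and Coro1a flatten, while Map2 and Ret stay low in HRG.

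Tip and trunk genes give the setting of these patterns. Of the 7 tip genes measured, all 7 were lower in HRG than in BSN and 6 were lower than in PTN, against 8.86% and 11.7% of all kept probe sets. Ros1, with HRG signals under the floor (611 ± 5.8), was kept only through BSN and PTN. It thus had to differ from HRG, and its call is no support. Gfra1 averaged 5916 ± 513 with BSN, 2113 ± 340 with HRG and 5771 ± 584 with PTN (SD, n = 3). Wnt11, a tip ligand, was not analysed here. Of 7 trunk genes 5 were higher in HRG than in BSN, against 6.92% of all kept probe sets, and 6 were higher and 1 lower in HRG than in PTN, against 14.1% and 11.7%. The lower one was Aqp2, the apical water channel, which was kept only through PTN (1531 ± 746) and lay under the floor on every BSN (139 ± 26.7) and HRG (183 ± 30.7) array. Krt7, a keratin, did not pass in HRG against BSN (10263 ± 864 against 12260 ± 1035). Aqp3, a second water channel of the trunk and collecting duct, averaged 524 ± 101 with BSN, 9668 ± 1570 with HRG and 1348 ± 540 with PTN. It lay under the floor on every BSN array and was kept through HRG and PTN, so its call against BSN is no support. Thus Dcx, Map2, Elavl4 and Coro1a, like the tip genes, had their lowest signals in the medium where Aqp3 was highest. For Elavl4 the difference between HRG and PTN did not pass, and Gap43 did not differ between HRG and PTN. Epithelial markers were bright on every array: Epcam lay at the 99.8th to 99.9th percentile and Cdh1, encoding E-cadherin, at the 91.5th to 97.2nd.

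Other genes known from neurons were counted from 4 lists of 75 genes without the members. Of these 61 were on the array and 30 were kept. In HRG against BSN 7 were lower (23.3%, against 8.86% of all kept probe sets), 1 was higher (against 6.92%) and 22 did not pass (limma, adjusted p under 0.05), with a median log2 change of -0.19 against -0.04 for all kept probe sets. In HRG against PTN 6 were lower (20.0%, against 11.7%), 4 were higher (against 14.1%) and 20 did not pass, with a median of 0.15 against 0.08. In PTN against BSN 6 were lower (20.0%, against 13.4%), 1 was higher (against 9.15%) and 23 did not pass, with a median of -0.30 against -0.11. Some of these genes were kept only through the media where they were high, Chgb and Sox11 through BSN and PTN, Gad1 through BSN and Nefh through HRG, so they had to differ, and their calls are no support. Most neuron genes that could be measured did not pass in any 1 comparison, and those that did went in both directions.

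Among cytoskeletal genes, Dpysl5, a collapsin response mediator, gave 4013, 3407 and 3778 in BSN, 1566, 1382 and 1517 in HRG and 2008, 2052 and 2118 in PTN. The media did not overlap, and Dpysl5 fell 2.49-fold in HRG against BSN (limma adjusted p = 1.94e-05). Its fall in HRG against PTN was 1.38-fold (limma adjusted p = 0.0171) and missed the threshold when HRG replicate 2 (0.0713) or PTN replicate 3 (0.0503) was left out. Map1b, a microtubule protein of growing axons, fell 1.93-fold in HRG and 2.64-fold in PTN against BSN (limma adjusted p = 0.00117 and 0.000109). Dclk1, a kinase closely related to Dcx, was among the brightest genes, with 15328, 16306 and 16643 in BSN, 11105, 10182 and 11095 in HRG and 21450, 22735 and 23543 in PTN. Dclk1 was lowest in HRG on every array, 1.49-fold below BSN and 2.09-fold below PTN (limma adjusted p = 0.00317 and 1.99e-05), at the 92.9th percentile or higher throughout. By this probe set, its brightest, Dclk1 lay far above the floor in all media, unlike Dcx. Its other kept probe sets lay lower, at the 73.9th to 83.8th and the 44.1st to 55.2nd percentile. Both were above the floor on all 9 arrays, but the dimmer lay within the percentile range of Dcx in BSN and PTN. The contrast with Dcx therefore depends on the probe set.

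Tubb2b, a tubulin of neurons and other growing cells, was 1.34-fold lower in HRG than in BSN and 1.40-fold lower than in PTN. The first of these was lost with median centring, no filter or no intensity trend and without BSN replicate 1 (limma adjusted p = 0.0632), BSN replicate 2 (0.109) or HRG replicate 2 (0.124). Tubb3, the tubulin most used as a neuron marker, lay at the 33.2nd to 48.8th percentile, above the floor on 4 of 9 arrays, and did not pass in any comparison. The neurofilament genes Nefl and Nefm, the intermediate filaments Ina and Prph, and Stmn2, a tubulin-binding protein, had no probe set above the floor on any array.

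Nefh, the heavy neurofilament chain, ran opposite to Dcx, Map2 and Coro1a. It gave 188, 204 and 303 in BSN, 1130, 1024 and 899 in HRG and 129, 67.0 and 116 in PTN. Only the HRG arrays lay above the floor, so Nefh was at least 1.34-fold higher in HRG than in BSN and at least 1.59-fold higher than in PTN.

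Of the synapse and granule genes, Chgb, a chromogranin of dense-core granules, gave 1236, 1442 and 1126 in BSN, 348, 314 and 246 in HRG and 1904, 1352 and 1323 in PTN. Its HRG arrays lay under the floor, so it was at least 1.81-fold higher in BSN and at least 2.15-fold higher in PTN. Gad1, which makes the transmitter GABA, gave 825, 885 and 1245 in BSN, 206, 140 and 227 in HRG and 438, 427 and 316 in PTN. It was at least 1.39-fold higher in BSN than in HRG and at least 1.52-fold higher in BSN than in PTN, and its HRG and PTN arrays were all under the floor. It is counted among the genes lower in HRG against PTN, but with both media under the floor no fold is given and the call is not read as a difference. That call was also lost without HRG replicate 1 or 2 or PTN replicate 1 or 2 (limma adjusted p of 0.0525 to 0.108).

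Sv2b, a synaptic vesicle protein, and Uchl1, a neuronal ubiquitin hydrolase, were 1.80-fold and 1.82-fold higher in HRG than in PTN (limma adjusted p = 0.00644 and 0.00115), and L1cam, an axonal adhesion protein, was 1.45-fold higher (0.0364). The L1cam call was lost under quantile normalization, median centring and no filter, and without any of 5 arrays (0.0535 to 0.109). Syp, encoding synaptophysin, lay at the 65.4th to 72.7th percentile on all arrays and did not pass in any comparison. Snap25 and Ncam1 had no probe set above the floor. Sox11, a transcription factor of immature neurons and other embryonic cells, was at least 1.82-fold higher in BSN and at least 1.33-fold higher in PTN than in HRG, whose arrays all lay under the floor. The related RNA-binding gene Elavl1, present in nearly all cells, lay at the 74.2nd to 83.9th percentile and did not pass in any comparison, unlike Elavl4 in HRG against BSN.

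**Figure D4:**
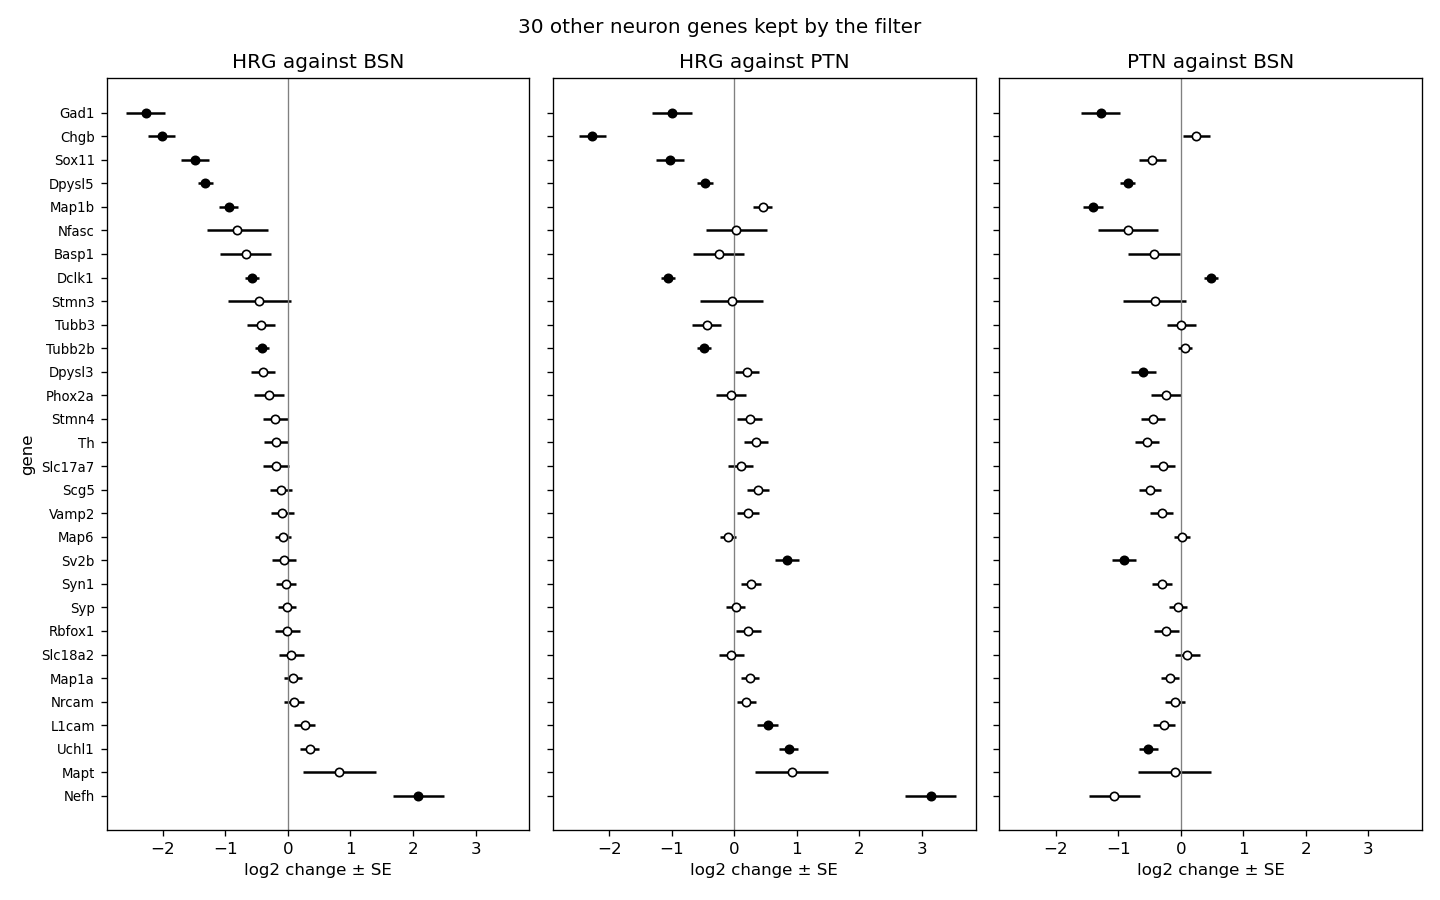
Log2 change with its standard error for the 30 kept neuron genes other than the 5 members, in the 3 comparisons, ordered by the change in HRG against BSN, with filled points for genes that passed. Gad1, Chgb, Sox11 and Dpysl5 lie to the left in both comparisons with HRG and Nefh lies to the right; most points are open and near 0.

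Close relatives of the members were measured as well. Of 17 on the array 14 were kept. In HRG against BSN 3 were lower (Dclk1, Map4 and Map1b), where 8.86% of all kept probe sets were. In HRG against PTN 1 of 14 was lower (Dclk1), where 11.7% of all were. In PTN against BSN Dclk1 was higher and 4 were lower, where 9.15% and 13.4% of all were (Map4, Map1b, Coro7 and Marcks, the last named after its value was seen). The coronins Coro1b and Coro1c, found in most tissues, did not pass in any comparison. Coro1b gave 1046 to 1302 in BSN, 1233 to 1497 in HRG and 944 to 1310 in PTN, so the low HRG signals of Coro1a had no counterpart in it. Map4, the microtubule protein of non-neuronal cells, lost its call in HRG against BSN without BSN replicate 2 (limma adjusted p = 0.174), BSN replicate 3 (0.0522), PTN replicate 3 (0.0549) or any HRG array (0.0733 to 0.129), with the replicate block (0.054), median centring, no filter and no intensity trend. With median centring Marcks, Coro7 and Map4 lost their calls in PTN against BSN. Marcks also lost its call without BSN replicate 2 (0.0607) or 3 (0.0601), and Coro7 without BSN replicate 3 (0.0597).

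Other cell types that carry these genes were looked for by their markers. Of 19 haematopoietic genes other than Coro1a 8 were kept, and the 19 summed to 12048 to 14590 in BSN, 12280 to 14476 in HRG and 10565 to 12471 in PTN. This sum overlapped between HRG and BSN. Bright genes weigh most in it, so it does not show whether dimmer genes of the list followed Coro1a. Ptprc, the pan-leukocyte antigen CD45, read 40.9 to 239 over its 2 probe sets and Itgam, a myeloid integrin, 27.9 to 63.8, all under the floor, and no probe set of the list was at 0. Other genes of the list lay higher. Arhgdib (57.9th to 76.8th percentile) and the brighter probe sets of Lyn (55.4th to 66.2nd) and Aif1 (47.7th to 59.7th) were above the floor on all 9 arrays. Fcer1g and Lyz2 were above it on 8 arrays and Csf1r on 7. Lcp1 and Cd74 were lower in PTN than in BSN, calls lost in several settings. Cd74 was kept only through BSN, so it had to differ from PTN, and its call is no support. Arhgdib was the gene of the list that was higher in HRG against both media, 1.61-fold and 2.01-fold (limma adjusted p = 0.00984 and 5e-04). Of 11 glia and neural crest genes 5 were kept, with sums of 8135 to 9240 in BSN, 7356 to 8332 in HRG and 7510 to 9006 in PTN. Sox10 (74.9 to 316), Foxd3 (15.2 to 30.6) and Ngfr (75.9 to 135) were under the floor on all arrays. Gfap (40.2nd to 53.0th percentile) and the kept Pmp22 probe set (48.0th to 58.9th) lay above it on all 9, and Mag on 6. Gfap, Pmp22 and Mag did not pass in any comparison. Cnp, a myelin enzyme at the 52.1st to 65.7th percentile, was 1.58-fold lower in HRG than in BSN (limma adjusted p = 0.0102), lost without BSN replicate 3 (0.0542) or HRG replicate 2 (0.0526). Mbp, a myelin protein, lay above the floor on all HRG arrays, 1 BSN array and no PTN array by its brighter probe set. It was at least 1.26-fold higher in HRG than in PTN (limma adjusted p = 0.0403). Kept through HRG and BSN, it had to differ from PTN, so this call is no support. The call was lost under quantile normalization, median centring, no filter or only the groups compared. It was also lost without BSN replicate 3, any HRG array or PTN replicate 2 or 3 (limma adjusted p of 0.0506 to 0.163). The other Mbp probe set lay under the floor throughout. The single kept gene of 6 for endothelium, Kdr, a VEGF receptor, had signals of 721 to 776 in BSN, 309 to 361 in HRG and 576 to 977 in PTN. Like Dcx and Coro1a it was kept through BSN and PTN and was lowest in HRG, with all HRG arrays under the floor, at least 1.07-fold below BSN and at least 1.18-fold below PTN, and it was above the floor on 4 of 9 arrays. The endothelial list summed to 2519 to 3089 in BSN, 2015 to 2707 in HRG and 2154 to 2734 in PTN, and Pecam1 (30.8 to 185), its defining gene, was under the floor throughout. Of 10 kidney mesenchyme genes 3 were kept, and 0 were called in each comparison (limma, 0 at an unadjusted p under 0.05), with sums of 4974 to 5907 in BSN, 5073 to 5624 in HRG and 4787 to 5529 in PTN. The neuron lists without the members summed to 89171 to 94020 in BSN, 64218 to 72830 in HRG and 87599 to 96166 in PTN for cytoskeletal genes, of which Tubb2b and Dclk1 were the brightest. For synapse genes the sums were 24035 to 26958, 21850 to 23770 and 19198 to 22438. The part of other cell types in the members' signals was not tested.

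The promoters of the members called lower in HRG against both other media, Dcx, Map2 and Coro1a, are shown as a description. The members were chosen with these contrasts known, so their common direction is no sign of shared control. Of the 5 members 4 had an entry in the RefSeq promoter table (GRCr8), which gives 300 bases, and each sequence runs 5′ to 3′ on the gene's strand, from 250 bases before the listed start. Capitals mark matches on either strand to the motifs searched: TATAAA, the E-box CANNTG, the ETS core CCGGAA, and TCAGCAC and GGACAGC, the parts of the site of the neuronal repressor REST. Dcx lies at chrX:112304112-112304411 (minus strand), Map2 at chr9:75346440-75346739 (plus strand) and Coro1a at chr1:190731054-190731353 (minus strand).
Dcx: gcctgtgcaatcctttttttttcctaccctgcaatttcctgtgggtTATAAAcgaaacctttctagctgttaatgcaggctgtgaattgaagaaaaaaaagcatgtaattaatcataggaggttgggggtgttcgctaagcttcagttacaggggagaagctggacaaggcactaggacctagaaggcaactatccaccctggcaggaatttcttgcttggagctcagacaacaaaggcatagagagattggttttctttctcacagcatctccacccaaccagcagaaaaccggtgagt
Map2: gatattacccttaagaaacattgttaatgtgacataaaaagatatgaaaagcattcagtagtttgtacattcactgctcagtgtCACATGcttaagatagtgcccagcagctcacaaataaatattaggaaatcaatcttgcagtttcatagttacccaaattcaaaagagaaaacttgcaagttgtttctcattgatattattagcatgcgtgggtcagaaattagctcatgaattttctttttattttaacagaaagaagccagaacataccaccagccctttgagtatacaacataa
Coro1a: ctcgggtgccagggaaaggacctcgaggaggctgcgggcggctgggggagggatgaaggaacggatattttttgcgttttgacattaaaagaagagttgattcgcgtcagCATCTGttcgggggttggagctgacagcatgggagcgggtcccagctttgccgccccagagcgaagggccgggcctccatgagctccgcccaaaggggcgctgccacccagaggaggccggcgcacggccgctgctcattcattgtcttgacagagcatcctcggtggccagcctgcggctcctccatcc
The listed start lies 66.1 kb inside the gene from its outermost 5′ end for Dcx, 174 kb for Map2 and 0.03 kb for Coro1a, and which start these buds use was not measured. The Dcx window held TATAAA 204 bases before the start, which 14.2% of all 33469 promoters of this length hold. Map2 and Coro1a each held an E-box, at 166 and 140 bases before it, which 72.1% hold. The windows shared no motif across all 3 genes, and their GC content was 45%, 33.3% and 63% against a median of 51.7%. Elavl4 (chr5:130367614-130367913, minus strand) held an E-box 123 bases and a match to TCAGCAC 143 bases before its start, the latter present in 4.57% of promoters. A match is a description of letters, and a window without one says nothing about a factor.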

How the data were processed

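Expression was measured on 9 Affymetrix rat arrays, 3 for each medium, called biological replicates by the series' design. The authors deposited GCOS signal intensities on a linear scale, per the labels, from RNA that went through a double in vitro transcription. For GCOS itself, version and scaling target: not given in the sources used here. No further scaling was applied. Symbols came from the platform's table, updated by gene ID.

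The 40th percentile filter (at least 3 of 9 arrays) left 10106 of 15866 probe sets, 8415 with 1 symbol. Log2(signal + 16), computed here from the deposited intensities, was fitted over all 9 arrays with limma 3.58.1 in R 4.3.3 (lmFit, eBayes with an intensity trend, 6 residual degrees of freedom), with Benjamini-Hochberg adjustment over all kept probe sets and a threshold of 0.05. Folds are on that scale and understate changes of low signals. A bound sets the brighter mean against the floor of the dimmer group's arrays. Each list gene entered by its kept probe set with the highest mean.

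The members and the 13 gene lists were chosen with earlier results of these data known, so no list count is independent evidence. All member probe sets are named, with up to 3 passing genes per list, direction and comparison, the brightest of the rest, fixed tip and trunk references, and each member's 3 most similar genes. The fit was also run on simulated data with independent normal errors and shifts planted in HRG. Such data follow the model of the fit, so the run cannot test effects of the floor or of an outlying array. Nothing is read from it. Deviations from the group means correlated between same-numbered arrays of HRG and PTN at r of 0.266, 0.332 and 0.118 for replicates 1 to 3. Same-numbered pairs of the other comparisons gave -0.097 to 0.130, and unlike-numbered pairs reached 0.191. The r of replicate 3 was thus no higher than that of other pairs. The fit without a block was kept. Alternatives were quantile normalization, median centring, another pseudocount (1 or 64), a 60th percentile filter or none, no trend, the replicate block, only the groups compared and each array left out. Figures used Python 3.11.15 and matplotlib 3.10.9.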

Additional observations from a re-analysis of the deposited data

How the results depend on the processing

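Dcx, Map2 and Coro1a kept their calls in both comparisons with HRG under every alternative that tested them. The count of member probe sets called lower in HRG against BSN was 5, and it was 2 with the filter at the 60th percentile, where 2 members were tested, and 3 to 5 with 1 array left out, with 3 without BSN replicate 3 or HRG replicate 3. In HRG against PTN the count was 3, then 1 with the 60th percentile filter and 3 to 4 with 1 array left out. In PTN against BSN it was 1, and 0 after quantile normalization or median centring, where Gap43 was lost, each with 1 member at an unadjusted p under 0.05 in limma, and 0 to 2 with 1 array left out: 0 without BSN replicate 2 or BSN replicate 3, and 2 without PTN replicate 1, where Elavl4 was added. With the floor at the 60th percentile 2 of 8 member probe sets were kept instead of 5, and with the floor required on all 9 arrays 1.

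The other neuron genes lower in HRG against BSN numbered 7, then 4 with the 60th percentile filter and 5 to 7 with 1 array left out. In HRG against PTN they numbered 6, then 3 with that filter and 4 to 6. In PTN against BSN 7 were called in all, and 4 to 10 with 1 array left out, with 4 without BSN replicate 1 or BSN replicate 3. With the replicate number as a block the member counts stayed at 5, 3 and 1 and the other neuron counts at 7, 6 and 7, Map1b passed in HRG against PTN (limma adjusted p = 0.0324), and Dpysl3 (0.0532), Ret (0.0519) and Lcp1 (0.0504) were lost in PTN against BSN and Map4 (0.054) in HRG against BSN. Over all kept probe sets, median centring changed the split of calls from 1423 higher and 1180 lower to 943 and 1452 in HRG against PTN, from 925 and 1351 to 1598 and 645 in PTN against BSN, and from 699 and 895 to 855 and 623 in HRG against BSN. Counting each named gene under each alternative, 1424 values kept their side of the threshold, 111 lost a call and 15 gained a call. Of values called in the main fit or in the alternative, 0 changed sign. A change of sign in a value called in neither was not counted.

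With 3 arrays per medium the number of arrays limits precision. The deposited values hold no detection calls, so a signal under the 40th percentile bounds a fold and does not show absence. Dcx and Coro1a in HRG, and the dimmer probe sets of Dcx, Map2 and Gap43 in every medium, are limited in that way. Buds were not split into tip and trunk, and the position of a signal within the bud was not measured.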

Other observations

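Several neuron genes, picked after their values were seen, varied as much within a medium as between media. Mapt, the axonal microtubule protein tau, gave 157 in PTN replicate 1 and 1146 and 1414 in the other PTN arrays, against 573 to 923 in BSN and 1117 to 1424 in HRG. Basp1, a growth cone protein related in function to Gap43, gave 2475, 625 and 1557 in PTN, 877, 838 and 1951 in HRG and 1710 to 1892 in BSN. Rbfox3, a nuclear marker of mature neurons, had a brighter probe set that ranged from 76.8 to 803 over the 9 arrays and was above the floor on 1 of them. Neither Mapt nor Basp1 passed in any comparison (limma, adjusted p under 0.05).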
